A study of Bos taurus with 6 samples.

Results

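The extracellular matrix genes described here are 45 mRNAs of bovine muscle cells that encode collagens, laminins, thrombospondins, fibulins, fibrillins, lysyl oxidases and integrins, together with fibronectin (FN1), tenascin C (TNC), periostin (POSTN), SPARC, lumican (LUM), decorin (DCN), biglycan (BGN) and elastin (ELN). They were chosen by name among the 1863 of 26332 mRNAs for which a gene name was at hand, and those names belong to mRNAs that the study had selected as differentially expressed between its treatment groups. The study's list of names, ordered by its adjusted P-value, was at hand only in part, so that it held the mRNAs with the smallest values and not all that the study selected. The cells were primary myoblasts from the longissimus dorsi muscle of beef cattle fetuses. In 3 cultures they were kept in differentiation medium with 20 μM resveratrol (RSV), a plant polyphenol dissolved in dimethyl sulfoxide (DMSO), for 4 days, and 3 control cultures received DMSO alone in the same medium. All cultures carried the solvent and none was left without it.

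The matrix is the meshwork of secreted proteins that surrounds muscle fibers and the cells between them. Fibrillar collagens form its cables, type VI collagen a beaded network next to the basement membrane, and laminins with type IV collagen the basement membrane itself, the sheet that coats each fiber. Integrins are the receptors by which cells hold on to these proteins, and fibroblasts of the connective tissue are known as the main source of fibrillar collagen in muscle.

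Among the RSV and DMSO cultures, 37 of the 45 matrix mRNAs had a lower mean with RSV and 8 a higher mean. The log2 ratio of the RSV mean over the DMSO mean ran from -2.48 for COL6A6 to 2.02 for COL9A2, with a median of -0.76, beside 0.002 over the 18797 mRNAs with a ratio. It was at or below -1 for 14 members and at or above 1 for 1 member. Among the 1815 other named mRNAs with a ratio, whose names come from the same lists, 1018 were lower and 797 higher, so that 56.1% were lower against 82.2% of the matrix members. Since this contrast chose all named mRNAs, the ratios of the members are a description and carry no test. In bulk RNA, fewer cells that make a transcript and less of it per cell cannot be told apart.

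Values are given as normalized reads, that is, reads of a library divided by its size factor. The deposited table holds only group means, from which the whole reads of each library were recovered for 20378 of 20459 mRNAs with reads. The libraries are called A, B and C in each group by falling size factor, since the deposited means do not tie them to the sample labels. They held between 14438148 and 16981372 recovered reads. The paper states that its supplement lists expression values of each sample for the mRNAs it selected. Those values were not used here. All 6 libraries were recovered for 33 members. Of these, BGN, COL11A1, COL16A1, ITGAV, LAMB1, LAMC1, LOX, LUM and THBS2 had a group mean above 10000. Their reads were settled under a looser limit, 0.5 expected chance combinations per mean, against 0.01 for the rest of these members. For DCN and ITGB1 the 3 RSV libraries and the DMSO mean were recovered, and for COL3A1, COL5A1, COL5A2, COL6A1, COL6A2, COL6A3, COL12A1, FN1, TNC and SPARC only the ratio of the means. In a fit across all mRNAs whose mean reached 10 normalized reads (limma voom, Benjamini-Hochberg adjusted p under 0.05), 34.4% of 14948 mRNAs were called, 17.6% lower and 16.7% higher with RSV. These shares depend on the libraries and their scaling, since the 5140 calls fell to between 2583 and 2815 without any 1 DMSO library. Library sizes from summed reads turned the split from 2502 higher and 2638 lower to 3445 higher and 1898 lower. These sums leave out mRNAs without recovered reads of all libraries, such as DCN and ITGB1, and the members among those were all lower with RSV. All 33 members in the fit were called, 25 lower and 8 higher, and in none did the RSV and DMSO libraries overlap, where the libraries of 26.8% of all mRNAs in the fit lay apart with RSV lower and of 26.8% with RSV higher. As the members were selected on this contrast, nothing was read from these counts. The standard error (SE) of their log2 fold change was between 0.05 and 0.33, with a median of 0.11. The last members in the order of the name list were LAMA1, COL5A3 and COL4A5, at log2 ratios of 0.78, -0.40 and 0.60. The mRNAs past the end of the part at hand carry no name here, whether or not the study selected them.

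**Figure D1:**
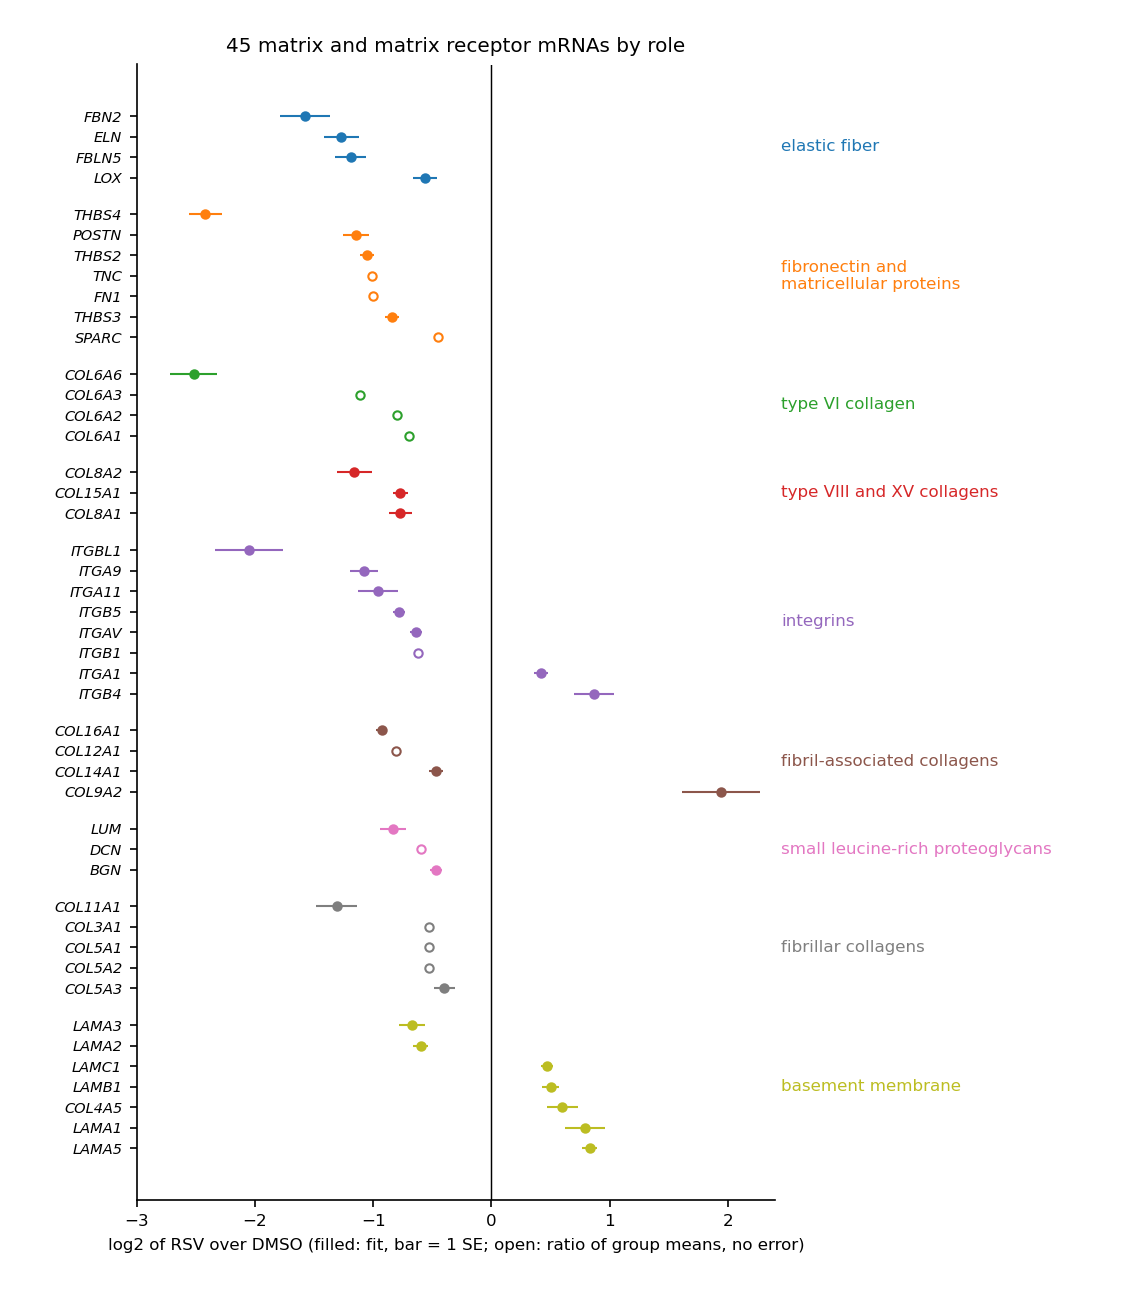
The log2 of RSV over DMSO is plotted for each of the 45 members, grouped by role and ordered by the median of the group. Filled points are fitted values with a bar of 1 SE over 3 RSV and 3 DMSO libraries, open points are ratios of group means without an error. Points to the left of 0 are lower with RSV, and 5 of the 8 members to the right belong to the basement membrane.

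Type VI collagen held COL6A6, the member with the lowest ratio when all libraries were used. COL6A6, an alpha chain of this collagen, had 504, 489 and 271 normalized reads with RSV and 2651, 2123 and 2267 with DMSO. The RSV mean was 421 ± 130 (SD, n = 3) and the DMSO mean 2347 ± 273 (SD, n = 3), so that RSV stood at 18% of DMSO, with a fitted log2 fold change of -2.52 ± 0.20 (SE). Every DMSO library lay far above every RSV library. RSV library C lay below the other RSV libraries by 0.87 on the log2 scale, and without it the log2 fold change was -2.23, against -2.35 for THBS4, which was then the lowest member. The other chains with a name were lower as well, COL6A3 at 46.2%, COL6A2 at 57.3% and COL6A1 at 61.5% of the DMSO mean. COL6A1, COL6A2 and COL6A3 form the common type VI molecule, and COL6A6 is a chain that can take the place of COL6A3 in it. COL6A1 and COL6A2 are neighbouring genes in the RefSeq annotation of ARS-UCD2.0, and their log2 ratios were -0.70 and -0.80.

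Matricellular proteins are secreted into the matrix and act on cells more than they build fibers. Among them and fibronectin, all 7 members were lower, with a median log2 ratio of -1.01. THBS4, a thrombospondin of muscle and tendon matrix, had 133, 105 and 102 normalized reads with RSV and 589, 566 and 666 with DMSO. Its RSV mean of 114 ± 17.1 (SD, n = 3) was 18.7% of the DMSO mean of 607 ± 52.2 (SD, n = 3), and the log2 fold change was -2.42 ± 0.14 (SE). The 3 RSV libraries of THBS4 lay closer together than those of COL6A6, with library C below the others by 0.21 on the log2 scale. THBS2 had 13620, 12797 and 11868 normalized reads with RSV against 25440, 26412 and 27071 with DMSO, a log2 fold change of -1.05 ± 0.06. THBS3 was at 1128, 1085 and 1023 against 2016, 1819 and 1956, a log2 fold change of -0.84 ± 0.06. The thrombospondins thus differed in size, THBS4 being at 18.7% of its DMSO mean, THBS2 at 48.5% and THBS3 at 55.9%.

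POSTN, a matricellular protein that binds collagen and integrins, had 4245, 4676 and 3334 normalized reads with RSV and 8706, 9137 and 9150 with DMSO, a log2 fold change of -1.15 ± 0.11. Its RSV library C was the lowest, at 0.42 below the others on the log2 scale. TNC, a large glycoprotein of developing and injured tissue, was at 49.5% of the DMSO mean. FN1, the fibronectin on which cells lay down other matrix fibers, was at 49.9%. SPARC, a collagen-binding glycoprotein, was at 73.4% and was the member of this group with the smallest difference. For TNC, FN1 and SPARC no spread between libraries was recovered.

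The elastic fiber, which lets tissue recoil, was represented by ELN, its core protein, by FBN2, a fibrillin of the microfibrils that surround the core, by FBLN5, which links elastin to cells, and by LOX, the enzyme that cross-links elastin and collagen. All 4 were lower, with a median log2 ratio of -1.21, the lowest of the groups. FBN2 had 644, 661 and 339 normalized reads with RSV and 1613, 1507 and 1614 with DMSO. Its log2 fold change was -1.58 ± 0.21, and -1.27 without RSV library C, which was lower than the other RSV libraries by 0.95 on the log2 scale. The DMSO libraries of FBN2 lay within a narrow range, and each was above every RSV library. ELN had 1779, 2132 and 1318 against 4066, 3982 and 4380, a log2 fold change of -1.27 ± 0.15. FBLN5 had 3861, 3980 and 2709 against 7928, 7804 and 7935, a log2 fold change of -1.19 ± 0.13. In these mRNAs too, library C was the lowest RSV library. LOX differed less, at 11821, 12640 and 9520 against 16931, 16533 and 16341, which was 68.2% of the DMSO mean and a log2 fold change of -0.56 ± 0.10.

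**Figure D2:**
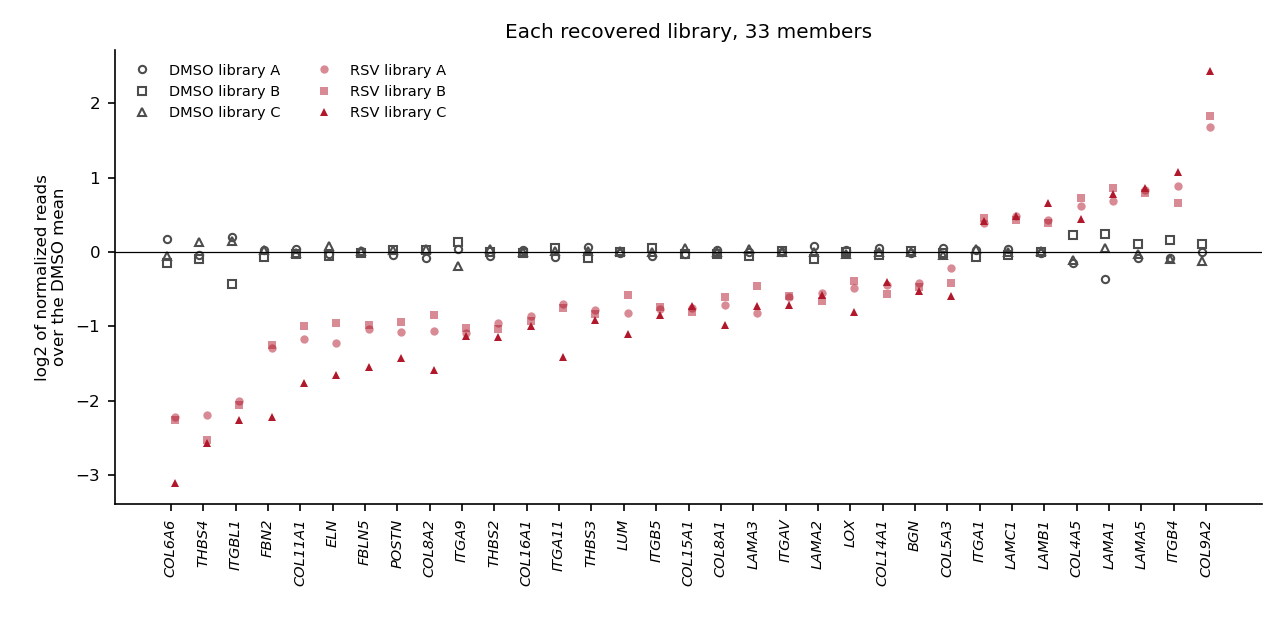
For the 33 members with all libraries recovered, each point is a library, plotted as the log2 of its normalized reads over the DMSO mean of that mRNA. Open grey symbols are DMSO libraries and red symbols RSV libraries, with circles for A, squares for B and triangles for C. The dark red triangles of RSV library C lie lowest in 21 of the 25 members that were lower with RSV.

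All 5 fibrillar collagens were lower, with a median log2 ratio of -0.53. COL11A1, a minor chain that sits inside thin fibrils, had 13493, 15244 and 8893 normalized reads with RSV and 31134, 29770 and 29927 with DMSO, a log2 fold change of -1.31 ± 0.17. RSV library C of COL11A1 was below the others by 0.69 on the log2 scale, and without it the log2 fold change was -1.08. COL5A3 was at 3501, 3038 and 2691 against 4198, 4000 and 3948, a log2 fold change of -0.40 ± 0.09, the smallest difference among the lower members. COL3A1, COL5A1 and COL5A2 stood at 69%, 69.1% and 69.1% of the DMSO mean. Type III collagen is a main fibrillar collagen of soft tissue, and type V chains are known to start fibrils and set their width. COL5A2 and COL3A1 are neighbours in the RefSeq annotation and had the same log2 ratio of -0.53. The chains of type I collagen, COL1A1 and COL1A2, carry no name here and were not analysed here.

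The fibril-associated collagens, which decorate the surface of fibrils, held members of both directions. COL16A1 had 7468, 7124 and 6801 normalized reads with RSV and 13771, 13454 and 13527 with DMSO, a log2 fold change of -0.93 ± 0.05. COL14A1 had 6817, 6299 and 7032 against 9622, 9010 and 9269, a log2 fold change of -0.47 ± 0.06. COL12A1 was at 56.9% of the DMSO mean. COL9A2, a chain of type IX collagen known from cartilage, went the other way. It had 43.2, 48 and 73 normalized reads with RSV and 13.5, 14.6 and 12.4 with DMSO. The RSV mean was 4.06 times the DMSO mean, with a log2 fold change of 1.94 ± 0.33 and of 1.71 without RSV library C, which held the highest value. Among all members, COL9A2 alone had a log2 ratio at or above 1, and its DMSO values were the lowest in normalized reads among the 33 members, down to 11 reads in library C.

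Type VIII and type XV collagens, short or basement membrane-associated collagens, were lower in all 3 members. COL8A2 had 438, 507 and 305 normalized reads with RSV and 869, 934 and 945 with DMSO, a log2 fold change of -1.16 ± 0.15. Its partner chain COL8A1 had 298, 323 and 248 against 502, 481 and 491, a log2 fold change of -0.77 ± 0.10. RSV library C was the lowest library in both chains. COL15A1, which lies at the outer face of the basement membrane, had 671, 644 and 682 against 1111, 1115 and 1170, a log2 fold change of -0.77 ± 0.06. Here the RSV libraries nearly coincided, with C above A and B by 0.05 on the log2 scale.

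The 3 small leucine-rich proteoglycans, which bind collagen fibrils and control their spacing, were lower. LUM had 10857, 12878 and 8938 normalized reads with RSV and 18984, 19101 and 19413 with DMSO, a log2 fold change of -0.83 ± 0.11. BGN had 15817, 15302 and 14646 against 20901, 21373 and 21261, a log2 fold change of -0.47 ± 0.05. DCN had 22613, 22531 and 22627 in the RSV libraries, which differed little, against a DMSO mean of 34252, or 66% of it. LUM and DCN are neighbouring genes, with log2 ratios of -0.82 and -0.60.

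The basement membrane was the group in which most members were higher, 5 of 7, with a median log2 ratio of 0.50. COL15A1, at its outer face, was counted with another group and was lower, at a log2 ratio of -0.77. COL4A1, COL4A2 and LAMB2 carry no name here and were not analysed here. Laminins are trimers of an alpha, a beta and a gamma chain. LAMA5, an alpha chain, had 6982, 6817 and 7099 normalized reads with RSV and 3714, 4206 and 3828 with DMSO, a log2 fold change of 0.83 ± 0.06. LAMA1, the alpha chain of the laminin of early development, had 137, 155 and 146 against 66.4, 101 and 88, a log2 fold change of 0.79 ± 0.17. The DMSO libraries of LAMA1 spread more widely than its RSV libraries. LAMB1, a beta chain, had 24097, 23452 and 28219 against 17725, 17738 and 18001, a log2 fold change of 0.50 ± 0.07. LAMC1, the common gamma chain, had 13889, 13295 and 13816 against 10168, 9648 and 9879, a log2 fold change of 0.47 ± 0.05. In LAMA5, LAMB1 and LAMC1 every RSV library was above every DMSO library, and library C was not the lowest RSV library. COL4A5, a chain of the collagen network of the basement membrane, had 337, 361 and 298 against 198, 256 and 203, a log2 fold change of 0.60 ± 0.13.

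The other alpha chains with a name were lower. LAMA2, the alpha chain of the muscle fiber basement membrane, had 2382, 2227 and 2351 normalized reads with RSV and 3725, 3290 and 3508 with DMSO, a log2 fold change of -0.60 ± 0.06. LAMA3, best known from epithelia, had 208, 269 and 222 against 368, 355 and 380, a log2 fold change of -0.67 ± 0.11. The named laminin alpha chains were therefore split, LAMA1 and LAMA5 being higher and LAMA2 and LAMA3 lower. LAMB1, the only named beta chain, and LAMC1, the only named gamma chain, were higher.

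Of the 8 mRNAs whose names begin as integrin names do, 6 were lower and 2 higher. ITGBL1, an integrin beta-like protein that is secreted and is not an integrin subunit, differed most. It had 19.3, 18.5 and 16.1 normalized reads with RSV and 89.2, 57.3 and 85.7 with DMSO, a log2 fold change of -2.05 ± 0.29. The RSV libraries of ITGBL1 were close together, and DMSO library B stood below the other DMSO libraries. ITGA9, a receptor subunit for tenascin C among other ligands, had 141, 148 and 138 against 310, 330 and 263, a log2 fold change of -1.08 ± 0.12. ITGA11, a subunit of a fibrillar collagen receptor, had 4783, 4649 and 2921 against 7466, 8105 and 7850, a log2 fold change of -0.96 ± 0.17 and of -0.73 without RSV library C. ITGA11 was one of the members in which library C stood far below the others, by 0.69 on the log2 scale.

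ITGAV and ITGB5 pair to a receptor for vitronectin. ITGAV had 7606, 7634 and 7078 normalized reads with RSV and 11518, 11665 and 11510 with DMSO, a log2 fold change of -0.64 ± 0.05. ITGB5 had 5399, 5469 and 5099 against 8830, 9479 and 9143, a log2 fold change of -0.78 ± 0.05. ITGB1, the beta subunit shared by most matrix receptors, had 22506, 25876 and 18665 in the RSV libraries against a DMSO mean of 34327, or 65.1% of it. The higher subunits were ITGA1 and ITGB4. ITGA1, a subunit of a receptor that binds basement membrane collagen, had 1413, 1482 and 1446 against 1100, 1030 and 1107, a log2 fold change of 0.42 ± 0.06. ITGB4, a laminin receptor subunit best known from epithelia, had 156, 134 and 178 against 79.9, 94.8 and 79, a log2 fold change of 0.87 ± 0.17.

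The spread between libraries of a group entered the choice of the members through the study's test, so that it too is given as a description. RSV library C was the farthest from the DMSO mean in 25 of the 33 members, library B in 6 and library A in 2. Among the lower members it was the farthest in 21 of 25, and among the higher members in 4 of 8. The same library was farthest in 73.7% of all mRNAs called lower and in 65.8% of those called higher, so that the same was seen over all called mRNAs. For the lower members the median log2 over the DMSO mean was -0.82 in RSV library A, -0.83 in B and -1.10 in C, and for all mRNAs called lower it was -0.44, -0.38 and -0.61. Library C was below A and B by 0.4 or more on the log2 scale in 9 of the 25 lower members (36%), COL6A6, FBN2, COL11A1, ITGA11, COL8A2, ELN, FBLN5, POSTN and LUM, and in 26% of all mRNAs called lower. It was within 0.15 of A and B in 10 of the 25 lower members (40%), beside 36.5% of all mRNAs called lower, and in 4 of the 8 higher members. Among these 14 were LAMA5, LAMC1, LAMA2, COL15A1, COL16A1, COL14A1, THBS3, ITGAV and ITGB5. The highest RSV library was at the median 1.21 times the lowest in members and in all mRNAs in the fit alike, and the highest DMSO library 1.07 times the lowest in members and 1.12 times in all mRNAs. The RSV libraries were spread more widely than the DMSO libraries in 23 of 33 members and in 68.5% of all mRNAs. What sets library C apart was not tested.

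**Figure D3:**
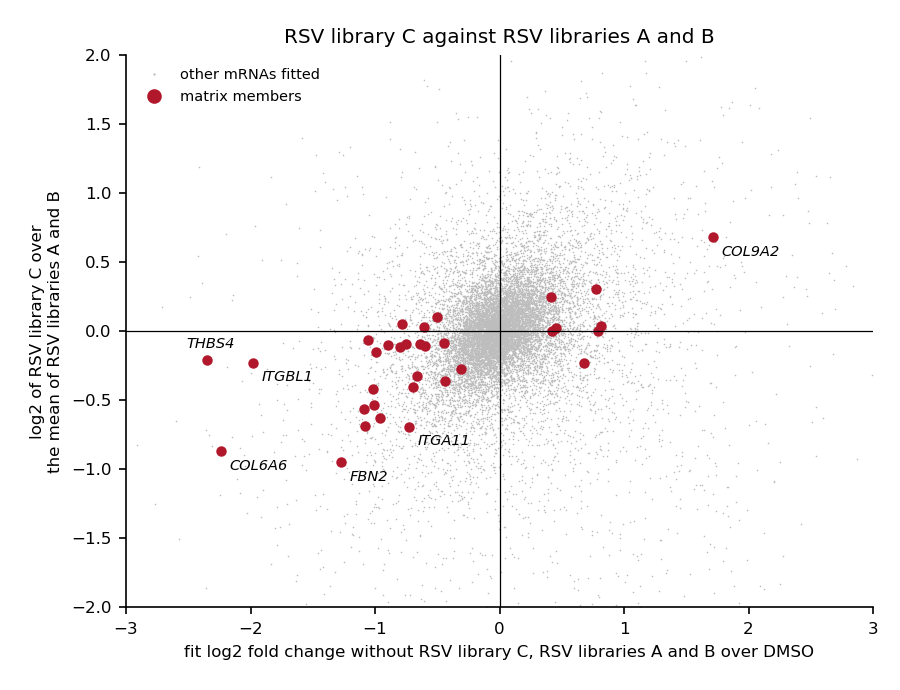
For each mRNA the log2 of RSV library C over the mean of RSV libraries A and B is plotted against the fitted log2 fold change made without library C. Red points are the 33 matrix members and grey points the other mRNAs in the fit, of which 128 lie outside the axes, and both axes share RSV libraries A and B. COL6A6 and FBN2 lie low on both axes, whereas THBS4 and ITGBL1 lie far to the left with library C below the other RSV libraries by 0.21 and 0.23, near the median of the lower members.

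Lists of related genes show which other named mRNAs accompanied the members. All of them were selected on the same contrast, so that their directions are a description and nothing was read from their counts. Of 31 genes for the maturation of collagen, 12 had a name and all 12 were lower, with a median log2 ratio of -0.50, and 10 of 10 in the fit were called lower, where 17.6% of all mRNAs were. P4HA3, a subunit of the enzyme that hydroxylates prolines of collagen, had 344, 288 and 241 normalized reads with RSV and 1126, 1064 and 1076 with DMSO, a log2 fold change of -1.92 ± 0.11. P4HA2, another such subunit, had 8980, 9167 and 8785 against 16190, 16487 and 16372, a log2 fold change of -0.86 ± 0.05. The third, P4HA1, was at a log2 ratio of -0.57, and SERPINH1, the chaperone of newly made collagen, at -0.60.

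Of 54 other matrix proteins, 20 had a name, of which 19 were lower and 1, HSPG2, was higher, with a median log2 ratio of -1.19, and 19 of 19 in the fit were called lower, where 17.6% of all mRNAs were. MFAP5, a protein of elastic microfibrils, had 277, 322 and 177 normalized reads with RSV and 1009, 946 and 1042 with DMSO, a log2 fold change of -1.99 ± 0.17. PRELP, a leucine-rich proteoglycan, had 1086, 1254 and 678 against 3445, 3620 and 3430, a log2 fold change of -1.84 ± 0.19. HSPG2 encodes perlecan, the heparan sulfate proteoglycan of the basement membrane, and its log2 ratio was 0.37. FBLIM1 on this list, at a log2 ratio of -0.72, is an adaptor inside the cell and no matrix protein.

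Of 31 genes of the TGF-beta and YAP pathways, which are known to drive matrix genes, 6 had a name, 4 lower and 2 higher. TGFB3, a TGF-beta ligand, had 525, 548 and 174 normalized reads with RSV and 1773, 1747 and 1718 with DMSO, a log2 fold change of -2.24 ± 0.33. LTBP1, which stores latent TGF-beta in the matrix, had 1671, 1804 and 1049 against 3802, 3424 and 3652, a log2 fold change of -1.30 ± 0.18. In both, RSV library C was the lowest. TGFB1, another ligand, was higher, with 898, 933 and 970 against 666, 671 and 736, a log2 fold change of 0.44 ± 0.07. SKI, a repressor of TGF-beta signalling, was higher at 0.36 ± 0.07. Of 36 genes on a list that holds cell adhesion plaque genes and also sarcoglycans, 13 had a name, 10 lower and 3 higher. Their median log2 ratio was -0.63. SGCD, a sarcoglycan, was at a log2 ratio of -0.91 and FLNA, an actin cross-linker, at -0.81, whereas SGCB, another sarcoglycan, was at 0.69 and FLNC, the muscle filamin, at 0.61.

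**Figure D4:**
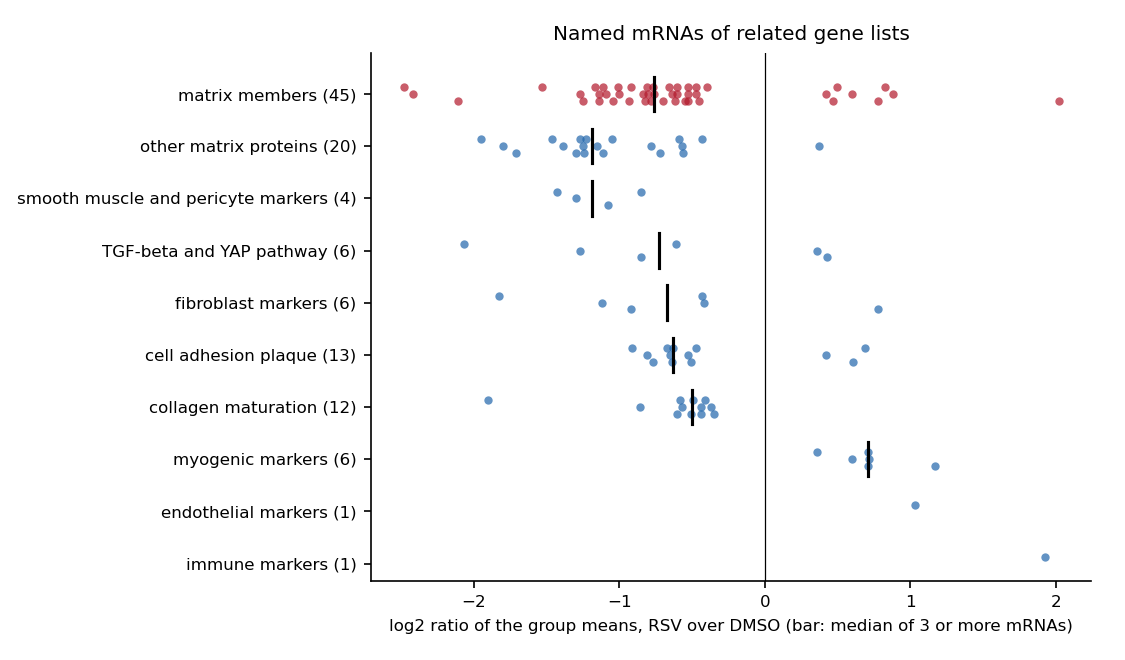
Each point is a named mRNA, plotted by the log2 ratio of its group means, for the 45 matrix members in red and for related lists in blue, with the number of named mRNAs in parentheses. The vertical bars are medians of lists with at least 3 named mRNAs. The collagen maturation list lies wholly to the left of 0 and the myogenic markers wholly to the right.

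The named markers of cell types in such a culture were selected on the same contrast as the members. Their directions are therefore a description, and nothing was read from their counts. In the fit 16.7% of all mRNAs were called higher with RSV and 17.6% lower. Of the named mRNAs outside the members, 56.1% had a lower mean. Of 26 myogenic markers 6 had a name and all 6 were higher with RSV, with a median log2 ratio of 0.71. MYH3, the embryonic myosin heavy chain, had 36810, 36577 and 31516 normalized reads with RSV and 23856, 19021 and 20592 with DMSO. MYH7, the slow myosin heavy chain, had a log2 ratio of 1.17. The summed level of these 6 markers was between 43242 and 47972 with RSV and between 26253 and 31715 with DMSO. MYH3 made up most of the sum in every library. Muscle transcripts were thus present in all 6 libraries. MYOD1, MYOG, DES and PAX7, which define myogenic cells, were not analysed here.

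Of 17 fibroblast markers 6 had a name, 5 lower and 1, TCF7L2, higher, with a median log2 ratio of -0.67. MXRA5, a matrix-remodelling protein of fibroblasts, had 5756, 5785 and 1892 normalized reads with RSV and 15202, 16350 and 16094 with DMSO. FAP, a surface protease of activated fibroblasts, had a log2 ratio of -1.12, and PDGFRA, the receptor that marks muscle fibroblasts and their precursors, had 6734, 6697 and 7277 against 9381, 9068 and 9308. TCF7L2, also used to mark connective tissue fibroblasts of muscle, was at 0.78. The summed level of the 4 fibroblast markers with all libraries was between 13068 and 16417 with RSV and between 29023 and 30024 with DMSO. MXRA5 was the largest part of this sum in each DMSO library, and PDGFRA in each RSV library. The difference between the sums therefore rests largely on MXRA5, whose RSV library C, at 1892, stood far below A and B. Transcripts of this list were present in every library of cells labelled as myoblasts.

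All 4 of 8 smooth muscle and pericyte markers with a name were lower, CSPG4 at a log2 ratio of -1.43, ACTA2 at -1.30, CNN1 at -1.08 and TAGLN at -0.85. The sum of CSPG4 and CNN1 was between 1726 and 4454 with RSV and between 6570 and 7283 with DMSO. FLT1 was the only named one of 8 endothelial markers, at 502 to 555 with RSV and 240 to 284 with DMSO, and CD14 the only one of 6 immune markers, at 27.7 to 46.5 and 8.34 to 10.4. None of 6 adipocyte markers had a name. The part of these cell type markers in the differences of the matrix mRNAs was not tested.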

How the data were processed

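RNA of 3 RSV and 3 DMSO cultures was sequenced. The authors divided read counts by library size factors with the R package DESeq and deposited the group means as normalized read counts, with a log2 fold change and P-values. The labels name the build bosTau8. The aligner, counting tool, use of strand and annotation for mRNA, and the number of fetuses, are not given in the sources used here. The deposited log2 fold change served only to place decimal points lost in the table, and the deposited P-values were not used.

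Each mean was written as a sum of whole reads over 3 size factors, which were found from the lowest means. Combinations were searched up to a mean of 100000, with each library within 0.5 and 1.6 times the mean (for those left, 0.2 and 2.2 times up to 30000), and kept where at most 0.01 chance combinations were expected (0.5 above a mean of 10000 or in the wider search). This gave the reads of 99.6% of 20459 mRNAs. Decoding and fit were tested on simulated data. The simulation of decoding did not cover the wider search or means of 30000 or more. The fit was limma voom (limma 3.58.1, R 4.3.3) with size factors as library sizes, a minimum mean of 10 and Benjamini-Hochberg adjustment. Other steps used Python 3.11.15, numpy 2.4.6, numba 0.67.0, pandas 2.3.3 and matplotlib 3.10.9. The series lists separate cultures, so that the spread is between cultures.

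Names came from the study's supplementary lists, which were at hand in part and in the order of adjusted P-values, and the RefSeq table of ARS-UCD2.0, whose build differs, served for neighbours and for the 109 protein-coding symbols that fit the name rule. All members were to be named, with the 2 largest ratios in each direction of the other lists, and further names on those lists were chosen after their values were seen. The members and lists were chosen with earlier results of these data known. Other library sizes, filters, models, ratios and left-out libraries were tried as alternatives.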

Additional observations from a re-analysis of the deposited data

How the results depend on the processing

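The median log2 fold change of the 33 members in the fit was -0.77 and lay between -0.80 and -0.69 under library sizes from summed reads, quantile normalization, no minimum mean, limma with a trended prior, the ratio of group means, 10 added to each mean, and each library left out. In all of these runs 25 members were lower and 8 higher. A log2 ratio of at least 1 in size left 14 lower members of 37, and 1 higher member of 8. Groups without overlap were seen in 25 lower and 8 higher members of 33. Of all mRNAs in the fit, the groups lay apart with RSV lower in 26.8% and with RSV higher in 26.8%. The members were selected on this contrast, so that nothing was read from these counts. Over all mRNAs 5140 were called, 2502 higher and 2638 lower. With library sizes from summed reads, which leave out mRNAs without recovered reads, 5343 were called, 3445 higher and 1898 lower (64.5% higher against 48.7%). The median of all mRNAs then moved by 0.08. Under that scaling 12 of 33 members moved by more than the spread between libraries, under quantile normalization 11, and with 10 added to each mean 2, COL9A2 and ITGBL1, and none changed sign. With a library left out, the count of called mRNAs was between 2583 and 6382. It was 2758 without DMSO library A, 2815 without B and 2583 without C, and 6382 without RSV library C. RSV library C was the farthest in 25 members, and in 26 with library sizes from summed reads.

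No paired analysis was possible because the recovered libraries carry no replicate numbers. For 10 members no combination of whole reads was settled, so that no spread between libraries is given for them here. Genes without a name, among them most of the 109 that fit the name rule, were not analysed here, and names cover only part of the mRNAs the study selected.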
